A study of Arabidopsis thaliana with 4 samples.

Results

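TCP15, YAB3, YAB5, PHV, ARR15, ARR16, TRY, SPCH, MUTE and FAMA are 10 regulators of leaf development in Arabidopsis thaliana. They cover a TCP transcription factor without a miR319 site, leaf polarity, the cytokinin response, trichomes and the stomatal lineage. They were chosen by name, with earlier results of these data known, and are some, not all, of the genes of these groups on the array. Each had to have a probe set that the platform annotation pairs with exactly 1 gene. All 10 had such a probe set, 1 each, among 22746 probe sets on the array, of which 13513 were paired with 1 gene and covered 13356 genes. ARR16 and FAMA are listed there under other symbols and were matched through their gene identifiers.

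The groups were jaw-D, with 2 arrays, and the Columbia accession, with 2 arrays. Per the labels, both gave total RNA from expanded leaves of plants kept in short days. The title of the series names overexpression of miR319a, a microRNA, and jaw-D is known as a dominant activation-tagged line with raised miR319a. Whether the 2 arrays of a genotype stand for separate plants or for 1 extraction is not in the labels, so the spread behind each p-value may be technical.

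As background, miR319 directs the cleavage of mRNAs for some TCP factors of the CINCINNATA type, which slow cell division at the leaf margin and promote leaf maturation. Other TCP factors lack the site and are not cleaved. In a young leaf the upper (adaxial) and lower (abaxial) sides are set by opposing transcription factors, cytokinin keeps cells dividing and is damped by type-A response regulators, and single epidermal cells enter the trichome or the stomatal lineage. The transcripts of the miR319-targeted TCP genes are not analysed here.

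The leaf label was set against marker genes first. RCA, which encodes rubisco activase, read 9730.1 and 7868.8 on the jaw-D arrays, against 9013.3 and 10769.7 on the Columbia arrays. LHCB4.1, a light-harvesting protein gene and the brighter of the 2 leaf markers named on the array out of 13 listed, averaged 10821.5 ± 999.2 in jaw-D and 12314.8 ± 1094.7 in Columbia (SD, n = 2 arrays each). Both lay in the top percentile of signals on every array. The 3 root markers of 11 that were named had summed signals of 70.2 to 72.5 in jaw-D and 79.2 to 92 in Columbia, the brightest being EXPA18 at 25.6 ± 4.38 and 42.4 ± 5.66 (SD, n = 2 arrays each). The 1 of 12 flower and meristem markers named, CLV3, read 1.8 and 3 in jaw-D and 3.1 and 4.2 in Columbia. SWEET11 was the 1 of 9 vascular markers named, at 909.7 ± 182 in jaw-D and 869.8 ± 40.5 in Columbia, and 0 of 7 epidermis markers were named. Array medians ran from 74.6 to 77.15. Signals under 16 made up 22.25% and 21.74% of probe sets in jaw-D, against 17.84% and 18.42% in Columbia, so the dim end of the scale was lower in jaw-D. Its part in the results on dim genes was not tested. Values after quantile normalization, which makes the distributions of the arrays alike, are given at the end.

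For 4 of the 10 regulators the signal stood clearly above the low end of the scale, meaning at or above the array median on all 4 arrays. These were TCP15, YAB3, YAB5 and PHV. FAMA, ARR15, ARR16, TRY and SPCH lay in between, and MUTE was near background, below the 25th percentile on all 4 arrays. The deposited values carry no detection calls, so this is a position within the array and not a test of presence. Since probe sets bind with different strength, the order of signals is also not an order of transcript amounts. As a second yardstick, 27 dim control probe sets for bacterial transcripts had a highest signal of 13.8 and 18.8 on the jaw-D arrays and 12.3 and 22.3 on the Columbia arrays. Signal was above that level on all 4 arrays for 8 of the 10 regulators. SPCH was above it on 3 arrays and MUTE on 0. The root marker EXPA18 was also above it on all 4 arrays, at 28.7 and 22.5 in jaw-D and 38.4 and 46.4 in Columbia. The other root markers, PYK10 and EXPA7, were below it on Columbia array 2, at 16.7 and 16.1. A signal above this level is thus not a test of presence either.

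**Figure D1:**
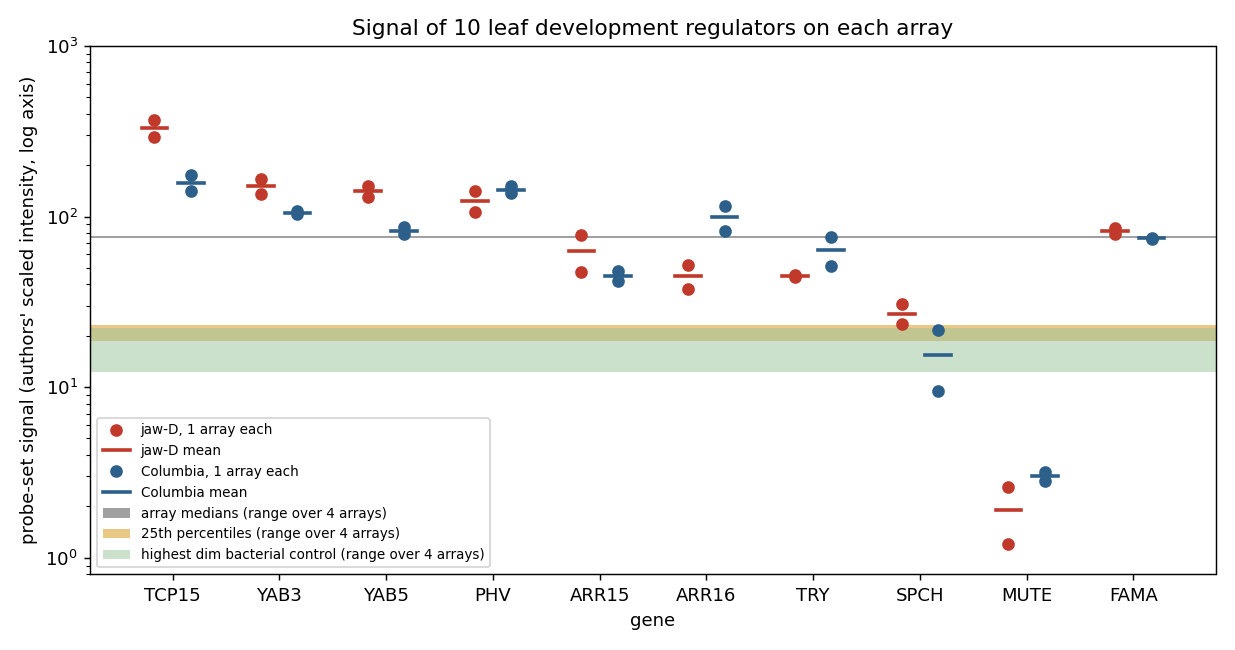
Probe-set signal on a log axis for each of the 10 regulators, with 1 point per array, short lines for genotype means (jaw-D left, Columbia right, 2 arrays each), and bands for the array medians, the 25th percentiles and the highest dim bacterial control. TCP15, YAB3, YAB5 and PHV sit above the medians on all arrays, MUTE lies below every band, and SPCH straddles the lower bands.

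Between jaw-D and Columbia leaves, TCP15 and ARR16 differed the most, in opposite directions: TCP15 averaged 330 in jaw-D and 158 in Columbia, and ARR16 averaged 44.9 in jaw-D and 99 in Columbia. The abaxial genes YAB5 and YAB3 were higher on both jaw-D arrays, by 1.58-fold and 1.37-fold on the log2(signal + 16) scale. On the same scale FAMA was 1.08-fold higher and TRY 1.29-fold lower in jaw-D, and SPCH and MUTE were too close to the control probe sets for a fold. With limma over all probe sets and Benjamini-Hochberg adjustment, 0 of the 10 passed the threshold of 0.05, where 0.189% of all probe sets did. At an unadjusted p under 0.05 there were 4 of 10 (TCP15, YAB5, ARR16 and YAB3), against 13.0% of all probe sets. The 10 were chosen with earlier results of these data known, so neither this share nor the next can show an excess among leaf regulators. The arrays of the genotypes did not overlap for 8 of 10, against 44.0% of all probe sets. Those 8 include MUTE and SPCH, close to the control probe sets, and FAMA, with a log2 difference of only 0.115. The smallest difference that passed the adjusted test anywhere on the array was 1.48 on the log2 scale, larger than any difference among the 10, so a lack of calls does not show that the genotypes had equal levels. The median log2 difference, jaw-D minus Columbia, was 0.23 over the 10 and -0.04 over all probe sets. Without jaw-D array 2 the median of the 10 was 0.0563. Because of how the 10 were chosen, their median cannot show a net rise among leaf regulators either.

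**Figure D2:**
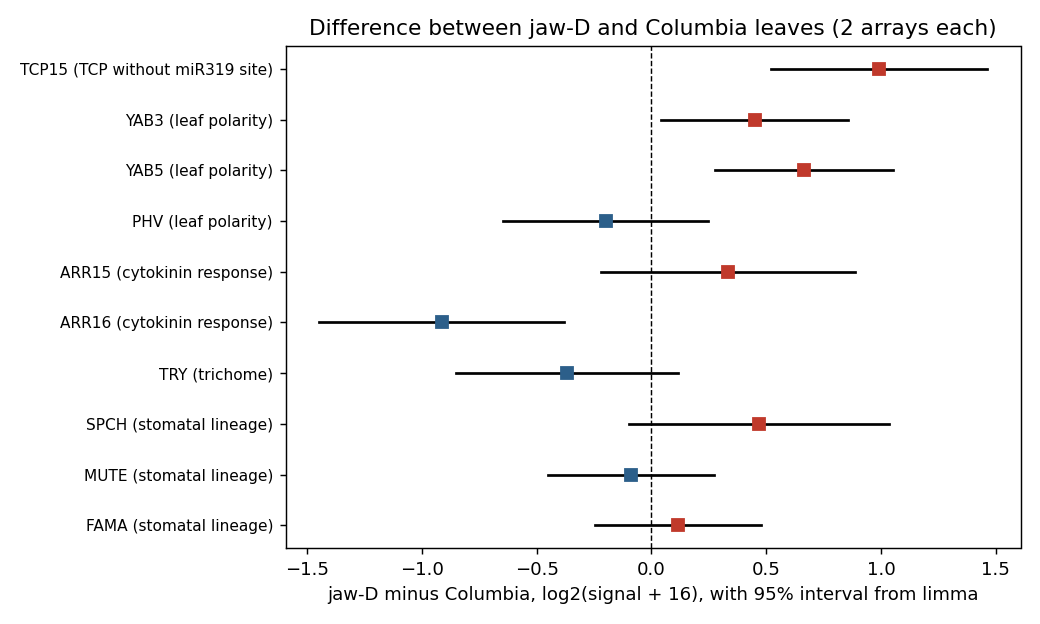
Log2 difference, jaw-D minus Columbia, for each of the 10 regulators (squares, red where higher and blue where lower in jaw-D), with the 95% interval from limma as a line. The intervals of TCP15, YAB3, YAB5 and ARR16 leave out 0 and those of the other 6 include it.

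TCP15 (AT1G69690) encodes a class I TCP factor that acts on cell division and endoreduplication in leaves, and it was the only 1 of 18 listed TCP genes without a miR319 site that the annotation named. Its signal was 292 and 368.9 on the jaw-D arrays, against 175.2 and 140.9 on the Columbia arrays. Both jaw-D arrays were above both Columbia arrays, and on each array the gene ranked between the 63.53rd and the 83.1st percentile of signals. The log2 difference was 0.99 ± 0.19 (SE, 2 arrays a genotype), with a 95% interval of 0.52 to 1.46, an adjusted p of 0.157 and an unadjusted p of 0.00227 by limma. This is a 1.99-fold higher signal on the log2(signal + 16) scale, and 1.58% of all probe sets had a larger difference in either direction. When limma was run over only the brighter probe sets, from the median mean signal upwards, TCP15 passed, with an adjusted p of 0.0236. There 2.56% of the probe sets tested passed. Over all the settings tried its adjusted p ran from 0.0236 to 0.513.

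Among the polarity genes, both abaxial genes had positive differences and the adaxial gene PHV a negative one whose 95% interval included 0. YAB5 (AT2G26580), a YABBY transcription factor gene of the abaxial side, read 150.7 and 130.5 in jaw-D and 78.7 and 86.6 in Columbia. YAB3 (AT4G00180), a YABBY gene that acts together with FILAMENTOUS FLOWER, read 134.8 and 166.4 in jaw-D and 107.8 and 103.2 in Columbia. For both YABBY genes the jaw-D arrays lay above the Columbia arrays without overlap. PHV (AT1G30490), a class III homeodomain-leucine zipper gene of the adaxial side whose transcript is cleaved by another microRNA family, read 106.7 and 141.3 in jaw-D and 150 and 137.2 in Columbia, and its genotypes overlapped.

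By limma, YAB5 had a log2 difference of 0.66 ± 0.16 (SE) with an interval of 0.28 to 1.05 and an adjusted p of 0.214. YAB3 had 0.45 ± 0.16, with an interval of 0.04 to 0.86 and an adjusted p of 0.344. PHV had -0.20 ± 0.18, an interval of -0.65 to 0.25 and an adjusted p of 0.705. The difference of YAB5 exceeded that of PHV by 0.86 and the difference of YAB3 exceeded that of PHV by 0.65, and in both cases the values of single arrays did not overlap between genotypes. YAB5 and YAB3 differed from each other by 0.22 in this respect, with overlap. These contrasts between genes were not tested. Among single probe sets, 44.0% did not overlap between genotypes, and no such share was worked out for pairs of genes. PHV differed from YAB5 and YAB3 in sign, which makes such a separation more likely. Both other polarity genes named on the array, of 23 listed, had negative differences: AGO7, an ARGONAUTE of the trans-acting siRNA pathway that limits abaxial factors, had -0.36 (adjusted p = 0.498 by limma), and SEU, a co-repressor gene, had -0.10 (adjusted p = 0.85).

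The type-A response regulators ARR15 and ARR16, which are induced by cytokinin and feed back on its signalling, lay on opposite sides of 0. ARR16 (AT2G40670) read 37.5 and 52.2 in jaw-D, against 82.2 and 115.8 in Columbia. Both Columbia arrays were at or above the array median and both jaw-D arrays were below it. The log2 difference was -0.91 ± 0.22 (SE), with an interval of -1.45 to -0.38 with an adjusted p of 0.216 from limma. The signal was 1.88-fold lower in jaw-D on the log2(signal + 16) scale. ARR15 (AT1G74890) read 47.2 and 77.6 in jaw-D and 41.9 and 48.2 in Columbia. Its jaw-D arrays were the farther apart, and the lower of them fell inside the Columbia range. Its log2 difference of 0.34 ± 0.22 (interval -0.22 to 0.89, adjusted p = 0.593 by limma) came down to 0.05 without jaw-D array 2. The difference of ARR15 exceeded that of ARR16 by 1.25, with no overlap of single arrays between genotypes. This contrast was not tested either, and the opposite signs again make such a separation more likely. Of 49 listed cytokinin genes the annotation named 4. The other 2 were dim: ARR18, of the type-B activators, read 21.9 and 17.6 in jaw-D and 14.4 and 29.7 in Columbia, and ARR22 stayed between 0.5 and 1.3 on all arrays.

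TRY (AT5G53200) encodes a small MYB protein that moves between epidermal cells and inhibits trichome fate. Its signal was 44.5 and 45.6 in jaw-D, against 76.1 and 51.3 in Columbia. The jaw-D arrays were close together and just below the lower Columbia array, so the size of the difference rested on Columbia array 1. The log2 difference was -0.37 ± 0.20 (SE), with an interval of -0.85 to 0.12 and an adjusted p of 0.499 by limma. Without Columbia array 1 it was -0.14. Of 26 trichome genes, 3 were named. GIS, a zinc finger gene that promotes trichome formation on inflorescence organs, read 50.8 and 42 in jaw-D against 124.1 and 97.8 in Columbia, which gave -1.02 on the log2 scale (adjusted p = 0.139 by limma). SIM, a cell cycle inhibitor gene needed for endoreduplication in trichomes, had 0.44 with an adjusted p of 0.401. In RNA from whole leaves, fewer cells of a type and less RNA per cell cannot be told apart.

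The 3 basic helix-loop-helix genes of the stomatal lineage, which act in sequence, had distinct positions on the array. SPCH (AT5G53210), which starts the lineage, read 23.3 and 30.7 in jaw-D and 21.5 and 9.5 in Columbia. MUTE (AT3G06120), which ends the divisions of meristemoid cells, read 2.6 and 1.2 in jaw-D and 3.2 and 2.8 in Columbia. FAMA (AT3G24140), which acts at the last step before guard cells form, read 78.7 and 86.1 in jaw-D and 75.3 and 74.3 in Columbia. Of the 3, FAMA alone stayed near the array median, between the 49.27th and the 52.37th percentile, and MUTE stayed between the 2.455th and the 6.307th.

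For SPCH the genotypes did not overlap, but both Columbia arrays were below the 25th percentile and 1 of them was below the highest bacterial control. Its log2 difference of 0.47 ± 0.23 (SE, interval -0.10 to 1.04, adjusted p = 0.462 by limma) therefore depended on the pseudocount, at 0.85 with 1 and 0.20 with 64, and it was 0.19 without Columbia array 2. FAMA had 0.11 ± 0.15, an interval of -0.25 to 0.48 and an adjusted p of 0.805 by limma, so that a 1.5-fold change in either direction on the log2(signal + 16) scale lay outside its interval. MUTE was below the highest bacterial control on all 4 arrays, so no fold is given. Its fitted difference of -0.09 (adjusted p = 0.863 by limma) became 0 when signals under 20 were set to 20. Of 31 listed stomatal genes 5 were named. EPFL9, the gene of a peptide that promotes stomata, had -0.05 and AGL16, a MADS-box gene, had -0.35, with adjusted p of 0.944 and 0.459 by limma.

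In all, 22 of 203 genes in 7 developmental lists were named on the array, the 10 regulators and 12 others. The lists, too, were chosen with earlier results of these data known, so the shares below only describe them. Of the 12 others, 0 passed the adjusted test, and 3 had an unadjusted p under 0.05 by limma, against 13.0% of all probe sets. Besides GIS these were organ-size genes. AN, a leaf width regulator gene, read 295.9 and 257.6 in jaw-D and 216.8 and 180.5 in Columbia, which gave 0.45 (adjusted p = 0.355 by limma). NUB, a zinc finger gene of organ shape, read 23.6 and 18.6 in jaw-D and 42.1 and 30.1 in Columbia, with -0.48 and an adjusted p of 0.355 by limma. ARL, a gene of organ expansion, had -0.31. Of the 12, 10 were lower in jaw-D and 2 were higher, with a median log2 difference of -0.16, where 56.9% of all probe sets were lower and their median was -0.04. After quantile normalization, where ARR18 turned to 0.11, 9 were lower and 3 higher, with a median of -0.0878, and 50.1% of all probe sets were lower. No gene of the 24 listed for organ boundaries and KNOX factors was named.

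**Figure D3:**
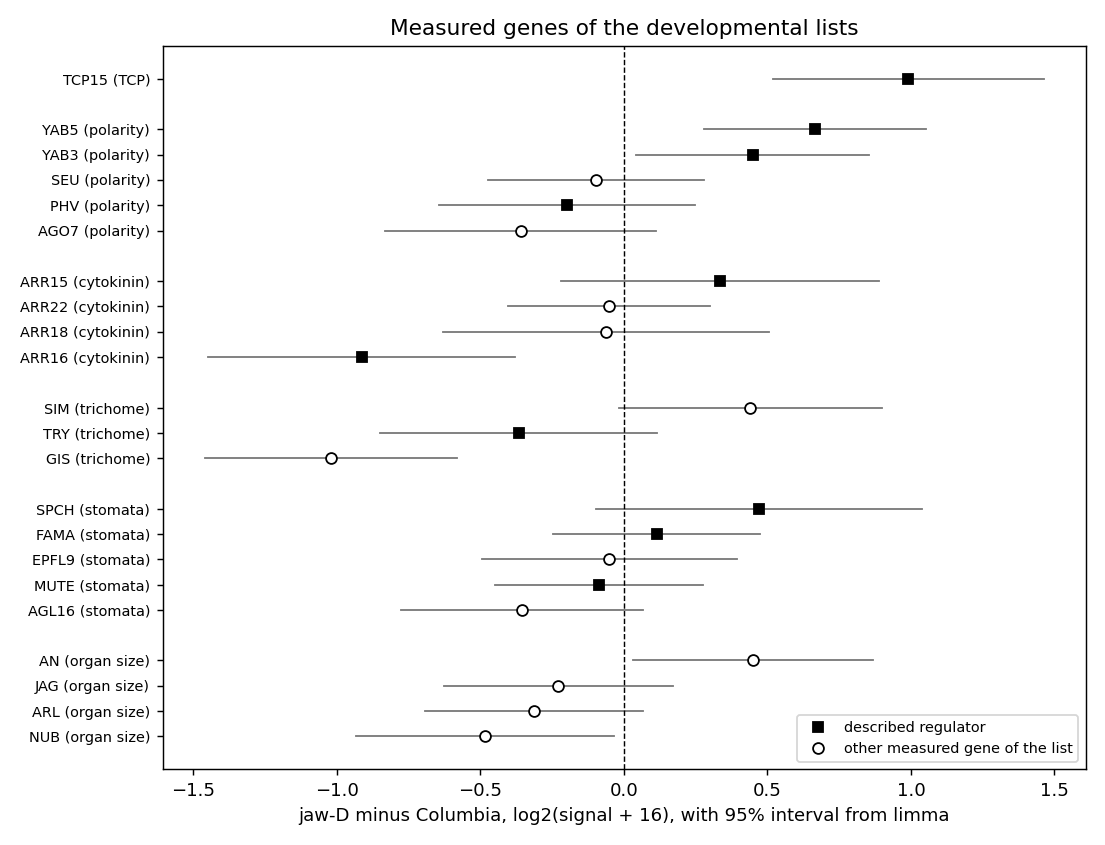
Log2 difference, jaw-D minus Columbia, with its 95% interval from limma, for the 22 named genes of the developmental lists, filled squares for the 10 regulators and open circles for the 12 others. The intervals of TCP15, YAB5, YAB3 and AN lie above 0, those of ARR16, GIS and NUB lie below it, and the rest include it.

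TRY and SPCH are neighbours in the TAIR10.1 gene order, and their differences had opposite signs, -0.37 and 0.47. Of the 20 protein-coding neighbours of the 10 genes, 12 were named on the array, and apart from TRY and SPCH their log2 differences ran from -0.27 to 0.44. The upper end of that range was HVA22C, next to TCP15, with an adjusted p of 0.419 by limma.

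The profile of TCP15 over the 4 arrays was most like those of AT1G76240, AT5G18460 and CCS, with Euclidean distances of 0.129, 0.129 and 0.227 between centred log2(signal + 16) values, among 6008 brighter probe sets of 1 named gene. AT1G76240 read 520.5 and 598.6 in jaw-D and 302 and 226.5 in Columbia. For ARR16 the nearest were AT3G60540, AT1G21830 and AT1G66090, at 0.111, 0.185 and 0.246. AT3G60540 read 74.3 and 103.8 in jaw-D and 142.2 and 194.4 in Columbia. With only 4 arrays these distances describe the arrays and carry no test.

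**Figure D4:**
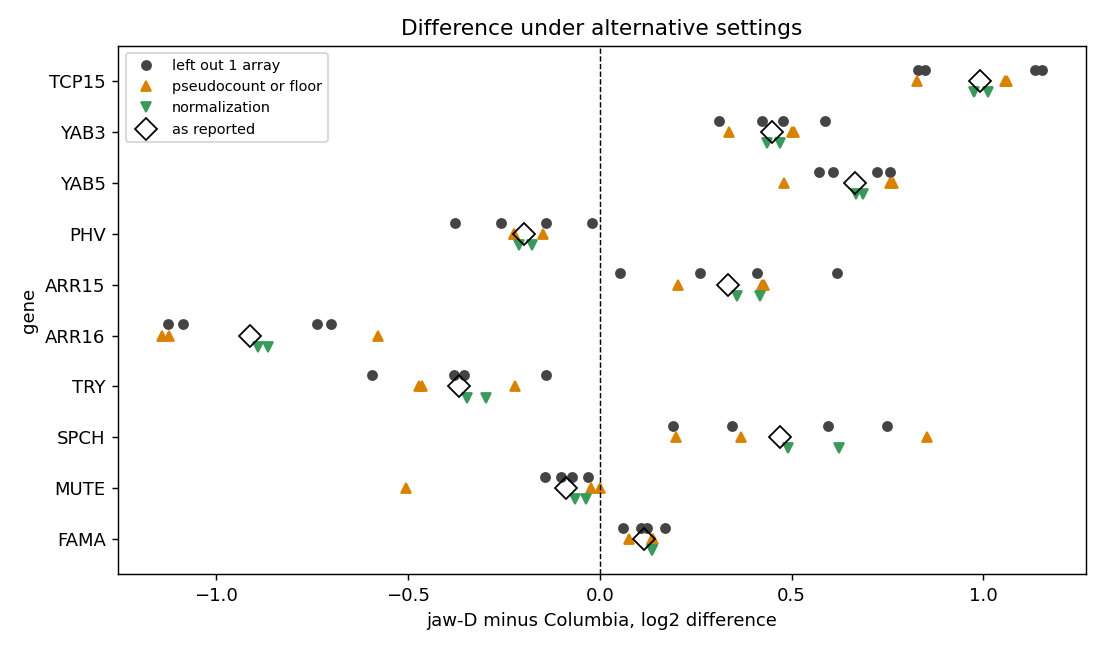
Log2 difference, jaw-D minus Columbia, of each of the 10 regulators as reported (diamonds), without 1 of the 4 arrays (circles), with pseudocounts of 1 and 64 or a floor of 20 (triangles pointing up), and with quantile normalization or median centring (triangles pointing down). No gene crosses 0, MUTE reaches 0 with the floor, and without 1 array PHV comes to -0.02 and ARR15 to 0.05. For the 8 genes whose arrays did not overlap between genotypes, only the normalizations could have changed the sign.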

How the data were processed

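The authors deposited 1 linear signal intensity per probe set and array. The software is not given in the sources used here. Trimmed of the lowest and highest 2% of rows, every array had a mean of 200.0, so the deposited intensities had been brought to a common level. Of 22810 rows, 64 array controls were left out of the tests. Differences, jaw-D minus Columbia, were tested on log2(signal + 16) with limma 3.58.1 (lmFit, then eBayes) under R 4.3.3 (2 residual and 3.76 prior degrees of freedom), two-sided, with Benjamini-Hochberg adjustment over 22746 probe sets. A fold change is thus on the log2(signal + 16) scale and understates that of dim genes. Precision is limited by the number of arrays. The fit was tested on simulated data, with changes larger than any difference among the regulators. That test does not bear on differences of their size. Figures were drawn with matplotlib 3.10.9.

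Gene names came from the platform annotation, updated by gene identifier to TAIR10.1, and 0 columns were unassigned. The 10 regulators and the gene lists were chosen with earlier results of these data known. The text names all 10, up to 3 other genes a list by smallest unadjusted p, the brightest gene of each marker list, and for TCP15 and ARR16 the 3 nearest profiles. The epidermis marker symbol FDH also names an unrelated gene and was left out. Leaf marker RCA, HVA22C and the remaining values were named after they were seen. Alternatives were other normalizations, pseudocounts, filters, a floor, other variance moderation, a replicate block and leaving out each array.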

Additional observations from a re-analysis of the deposited data

How the results depend on the processing

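The filters, the moderation settings and the replicate block leave a log2 difference as it is. Under the other 9 settings no regulator changed sign, and MUTE became 0 with a floor of 20. For the 8 whose arrays did not overlap, no change of sign was possible when 1 array was left out. Nor was it possible for them with another pseudocount or the floor, so only the normalizations could have changed their sign. TCP15 ranged from 0.83 to 1.15, YAB5 from 0.48 to 0.76, YAB3 from 0.31 to 0.59 and ARR16 from -1.14 to -0.58 on the log2 scale. PHV, from -0.38 to -0.02, and ARR15, from 0.05 to 0.62, came close to 0. With quantile normalization SPCH went from 0.47 to 0.62, ARR15 from 0.34 to 0.42 and FAMA from 0.115 to 0.136. ARR16 went from -0.91 to -0.87, TRY from -0.37 to -0.30 and MUTE from -0.09 to -0.04. Of the 10, 0 passed as reported and 1, TCP15, passed over the brighter 11375 probe sets, where 5 of the 10 were tested. Over the array, 43 calls became 224 and 291 with filters at the 25th percentile and the median, where fewer probe sets were tested, 103 with an intensity trend, and 1 with a floor of 20. By limma there were 0 calls with the pseudocount at 1 (2538 at an unadjusted p under 0.05) and 0 whenever 1 array was dropped (1978 to 2492 unadjusted), which leaves a genotype with 1 array whose spread is taken from the other genotype. The replicate block gave 66 calls, 0 of them among the 10, of which 3 had an unadjusted p under 0.05 by limma. The deviations of same-numbered arrays had a correlation of -0.0743, and nothing in the labels ties same-numbered arrays together. Regulators clearly above the low signals numbered 4, or 8 against the bacterial controls, and near background 1, or 2 at the 40th percentile. Without a detection call, no bound can be set for the dim genes SPCH and MUTE.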
